A study of Spirodela polyrhiza with 16 samples.

Results

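Membrane lipids of plants hold a large share of the phosphorus of a cell, and 61 of the 20389 gene models of the giant duckweed Spirodela polyrhiza are described here that are annotated for breaking phospholipids down or for making the galactolipids and the sulfolipid that can stand in for them. They are all gene models whose listed Swiss-Prot homolog has a name of the following kinds. The first kinds are a phospholipase, a synthase or desaturase of galactosyldiacylglycerols, a TRIGALACTOSYLDIACYLGLYCEROL protein and a sulfoquinovose enzyme. The others are a phosphoethanolamine N-methyltransferase, a phosphatidate enzyme, a diacylglycerol kinase and a diacylglycerol O-acyltransferase. Each model is called by its homolog's name, which does not show that it has that enzyme's function. Of the homologs, 44 are Arabidopsis proteins. The 61 models comprise 3 sulfolipid and 5 galactolipid models, 4 TRIGALACTOSYLDIACYLGLYCEROL (TGD) models, 2 phosphoethanolamine N-methyltransferases, 4 phosphatidate enzymes, 5 diacylglycerol kinases, 4 diacylglycerol O-acyltransferases, 10 phospholipases C, 10 phospholipases D and 14 phospholipases A and lysophospholipases.

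The plants were of clone 9509, floating plants made of a leaf-like frond with roots that hang into the water. They grew in 250 ml flasks holding 100 ml of medium, and on day 10 the medium was exchanged. No-phosphate plants received medium that lacked KH2PO4, and control plants received the full medium. On day 11 the plants of a flask were harvested as 1 biological replicate and divided into roots and fronds. The 16 RNA sequencing libraries form 4 groups of 4, namely no-phosphate roots, control roots, no-phosphate fronds and control fronds, all of 1 clone and pooled over the plants of a flask. P-values therefore measure the spread between flasks of that clone. Since KH2PO4 also supplies potassium and its replacement is not described, less phosphate and less potassium cannot be told apart in these groups.

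As background, a phosphate-limited plant can hydrolyse its phospholipids, which frees phosphate and leaves diacylglycerol. Phospholipase C releases diacylglycerol directly, whereas phospholipase D releases phosphatidate, which a phosphatidate phosphatase turns into diacylglycerol. At the plastid, monogalactosyldiacylglycerol (MGDG) synthase and digalactosyldiacylglycerol (DGDG) synthase add galactose to diacylglycerol, and SQD1 and SQD2 make sulfoquinovosyldiacylglycerol, the plant sulfolipid. These lipids carry no phosphate, are the main lipids of photosynthetic membranes, and in phosphate-starved Arabidopsis also replace phospholipids outside the plastid. Many phospholipases and diacylglycerol kinases act in signalling too.

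Whole reads recovered from the deposited FPKM values (fragments scaled to gene length and library size) summed to between 6325297 and 12437151 per library, so that 3 reads over 1 kilobase were worth 0.213 to 0.507 FPKM. The tissue labels were checked with 10 chlorophyll-binding and Rubisco small subunit models, which summed to 9242 to 16188 FPKM in no-phosphate roots, 12216 to 18707 FPKM in control roots, 30777 to 36217 FPKM in no-phosphate fronds and 36184 to 40527 FPKM in control fronds. Of these, 8 were higher in every frond library than in any root library, while the Rubisco small subunit model (Sp15g00063) went the other way, with means of 549.5 FPKM in no-phosphate roots, 573 FPKM in control roots, 29.8 FPKM in no-phosphate fronds and 24.9 FPKM in control fronds. Among 18 root markers, most of them Scarecrow-like proteins, 4 were higher in every root library and 3 in every frond library, so this list separates the tissues poorly, and the root markers summed to 285 to 320 FPKM in no-phosphate roots, 308 to 350 FPKM in control roots, 256 to 279 FPKM in no-phosphate fronds and 262 to 283 FPKM in control fronds. Casparian strip membrane protein 1, a protein of the root endodermis, averaged 36.2 FPKM in no-phosphate roots, 51.8 FPKM in control roots, 2.77 FPKM in no-phosphate fronds and 2.99 FPKM in control fronds. A SHORT-ROOT model (Sp07g00514), named for a regulator of root patterning, went the other way, with means of 0.252 FPKM in no-phosphate roots, 0.239 FPKM in control roots, 4.24 FPKM in no-phosphate fronds and 4.40 FPKM in control fronds. WUSCHEL-related homeobox 5, a marker of the root stem cell niche, stayed below 1 FPKM on average in all 4 groups.

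The lipid genes were mostly well expressed. The median of their mean levels over the 16 libraries was 24.4 FPKM, against 14.98 FPKM over the 16598 tested genes. 10 of them averaged at least 100 FPKM and 3 averaged under 1 FPKM. 60 of the 61 reached the mean of 0.5 FPKM required for testing. The exception was a phospholipase A1-Ibeta2 model (Sp11g00385), with 5 reads in no-phosphate roots, 8 in control roots, 0 in no-phosphate fronds and 1 in control fronds. Pfam domains were listed for 53 members. Some models list a further domain and may span more than 1 gene. These include diacylglycerol kinase 4 (Sp12g00774, a sodium/hydrogen exchanger domain), phospholipase SGR2 (Sp12g00066, a Memo-like domain) and diacylglycerol O-acyltransferase 2D model Sp11g00277 (a polyketide cyclase domain). The only domain listed for diacylglycerol O-acyltransferase 1 model Sp08g00973 is that of a pyridoxal-phosphate dependent enzyme. 19 members lie next to another member, in 10 adjacent pairs 6 to 217 bases apart, so the 61 models amount to 51 loci. Neighbours often carry the same homolog name on the same strand and may be pieces of 1 gene. The counts below are of models, so neighbours are counted separately although they are not independent evidence.

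In fronds, 1 day without phosphate raised models for the first step of sulfolipid synthesis and for DGDG synthesis, while models for phospholipases C and D did not pass the test. By limma on log2(FPKM + 1), with p-values adjusted over all 16598 genes and called below 0.05, 4 of the 60 tested members rose, or 6.67%, beside 2.11% of all genes. A further 2 fell, or 3.33%, beside 2.3% of all genes. The median log2 change of the members was 0.04, beside 0.01 for all genes. Without adjustment, 28.3% of the members and 20.7% of all genes had a p under 0.05. The count depended on single libraries. It dropped to 3 without no-phosphate frond library 5, 6 or 7 or control frond library 2 or 4, where between 154 and 466 genes were called among all tested, beside 732 with all libraries, and these 3 were in each case UDP-sulfoquinovose synthase and the pair of DGDG synthase models. With the frond libraries fitted alone it was 10 of 60, in a fit that called 11.0% of all genes beside 4.41% with all libraries. The added genes were MGDG synthase (Sp12g00726), TGD2 (Sp10g01035), a phospholipase D delta (Sp02g00858) and a phospholipase D alpha 1 (Sp08g01305). MGDG synthase and TGD2 were higher in no-phosphate fronds, and both phospholipases D were lower. The delta model averaged 25.8 FPKM in no-phosphate fronds and 33.2 FPKM in control fronds, and the alpha 1 model 112 and 143 FPKM. With every library scaled to the same FPKM sum, 3 members rose and 2 fell, beside 240 rising and 587 falling genes among all tested, where the deposited scaling gave 351 and 381. In bulk tissue, fewer cells of a type and less RNA per cell cannot be told apart. The summed frond markers given above were lower in 3 of the 4 no-phosphate fronds than in any control frond, while 4 called members rose and 2 fell. The part of the markers in the calls was not tested.

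**Figure D1:**
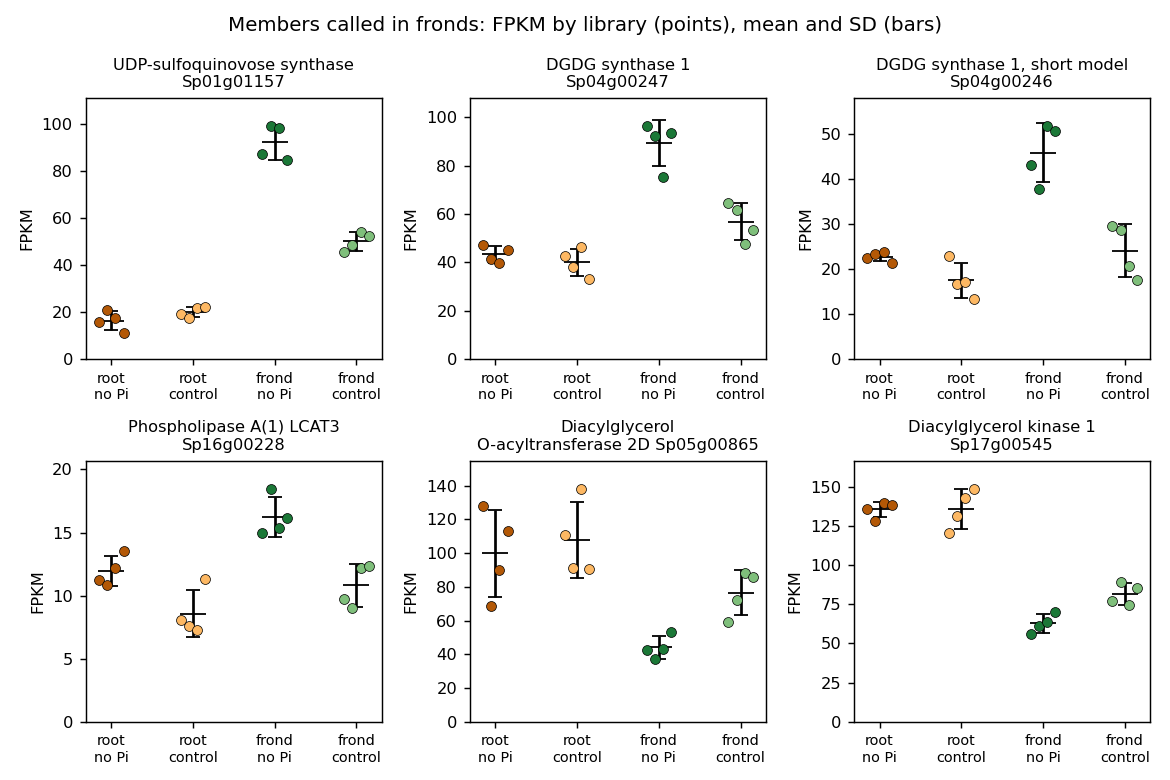
FPKM of the 6 lipid genes called in fronds, in each of the 16 libraries (points; x axis, tissue and medium, with "no Pi" for no phosphate), with the mean and SD of each group as bars. The no-phosphate fronds lie apart from the control fronds in all 6 panels, above them in the first 4 and below them in the last 2, whereas the no-phosphate and control roots share a range in each panel.

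UDP-sulfoquinovose synthase (Sp01g01157, SQD1; chromosome 1, 7779654 to 7781198, minus strand) makes the sulfur-bearing head group of the sulfolipid. Its level was 87.5, 99.3, 98.2 and 84.6 FPKM in no-phosphate fronds, against 45.5, 48.4, 54.1 and 52.4 FPKM in control fronds. Every no-phosphate frond library was thus above every control one. The means were 92.4 ± 7.46 FPKM in no-phosphate fronds and 50.1 ± 3.87 FPKM in control fronds (SD, n = 4 each), a ratio of 1.84 and a log2 change of 0.87 ± 0.14 (SE; adjusted p = 0.00682). This gene was called in all 22 alternative settings tried for it.

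The enzyme of the following step showed no such rise. SQD2, the sulfoquinovosyl transferase that joins the head group to diacylglycerol (Sp01g01794), had 66.3, 75.7, 75.6 and 74.0 FPKM in no-phosphate fronds, against 86.9, 84.1, 70.6 and 89.1 FPKM in control fronds. The groups overlapped, with a log2 change of -0.18 ± 0.14 (adjusted p = 0.493). A model with the Escherichia coli sulfoquinovosidase as its homolog, an enzyme that splits sulfoquinovose off in that bacterium (Sp13g00739), averaged 7.96 ± 3.14 FPKM in no-phosphate fronds and 7.47 ± 1.15 FPKM in control fronds, a log2 change of 0.02.

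Among the 5 galactolipid models, 2 rose, both with DGDG synthase 1 as homolog, the enzyme that adds the second galactose. They are neighbours on the minus strand of chromosome 4, 35 bases apart, Sp04g00246 at 1198276 to 1198925 and Sp04g00247 at 1198961 to 1204298. The longer, Sp04g00247, had 96.4, 92.3, 75.4 and 93.6 FPKM in no-phosphate fronds, against 64.6, 61.6, 47.6 and 53.6 FPKM in control fronds, with no overlap. Its mean was 1.57 times the control mean, with a log2 change of 0.65 ± 0.12 (adjusted p = 0.0119). The shorter, Sp04g00246, had 43.3, 37.9, 51.9 and 50.7 FPKM in no-phosphate fronds, against 29.6, 28.7, 20.8 and 17.5 FPKM in control fronds. Again the groups did not overlap, and its mean was 1.90 times the control mean (log2 change 0.92 ± 0.17, adjusted p = 0.0109). Both models were called in all 22 alternatives, with limma adjusted p-values of up to 0.04998 for the longer model and 0.0451 for the shorter. Their log2 levels had a Pearson r of 0.89 over the 16 libraries, which share tissue and treatment differences. They form 1 locus but make up 2 of the 4 models counted as rising in fronds.

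MGDG synthase, which adds the first galactose, missed the threshold. Its model Sp12g00726, with the highest mean level of the galactolipid models, had 214, 220, 180 and 176 FPKM in no-phosphate fronds, against 155, 158, 161 and 133 FPKM in control fronds. Although no library of one group reached into the other, the log2 change of 0.37 ± 0.11 had an adjusted p of 0.0741. In Arabidopsis, MGD3 is one of the MGDG synthase forms induced by phosphate starvation. The model Sp11g00561 has a probable MGDG synthase 3 of rice as homolog, not the Arabidopsis protein. It averaged 9.53 ± 3.09 FPKM in no-phosphate fronds and 6.42 ± 1.67 FPKM in control fronds, with overlapping libraries and a log2 change of 0.49 ± 0.28 (adjusted p = 0.341). This model also lists a Tic20-like domain, of a plastid protein import channel, and may therefore join 2 genes. The palmitoyl-MGDG desaturase, which puts a double bond into MGDG (Sp08g01322), averaged 64.3 ± 7.89 FPKM in no-phosphate fronds and 80.1 ± 16.7 FPKM in control fronds (log2 change -0.30, adjusted p = 0.509).

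TGD proteins carry lipid precursors from the endoplasmic reticulum into the plastid. None of the 4 TGD models was called in fronds, and all 4 had positive log2 changes, between 0.05 and 0.59. TGD2 (Sp10g01035), the lipid-binding subunit of the inner envelope transporter, had 29.1, 33.5, 31.0 and 31.6 FPKM in no-phosphate fronds, against 24.7, 22.7, 19.1 and 16.2 FPKM in control fronds. Its groups did not overlap, and its adjusted p of 0.0508 lay just above the threshold. The summed level of the 5 galactolipid models was 385 to 432 FPKM in no-phosphate fronds and 302 to 330 FPKM in control fronds, a description of the levels with no test.

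Both members that fell in fronds consume diacylglycerol, the shared substrate of these pathways. Diacylglycerol O-acyltransferase 2D (Sp05g00865; chromosome 5, 5819639 to 5822820), of a family that makes storage triacylglycerol, had 42.5, 37.0, 43.3 and 53.3 FPKM in no-phosphate fronds, against 59.4, 72.3, 88.3 and 85.8 FPKM in control fronds. All no-phosphate libraries were below all control libraries, with means of 44.0 ± 6.82 FPKM in no-phosphate fronds and 76.4 ± 13.4 FPKM in control fronds (log2 change -0.78 ± 0.19, adjusted p = 0.0339). Diacylglycerol kinase 1 (Sp17g00545; chromosome 17, 4384196 to 4391384), which phosphorylates diacylglycerol to phosphatidate, had 56.2, 61.3, 63.6 and 70.4 FPKM in no-phosphate fronds, against 77.3, 89.5, 74.4 and 85.5 FPKM in control fronds. Here too the groups were separate, by a small margin, with a log2 change of -0.37 ± 0.10 (adjusted p = 0.0418). The acyltransferase kept its call in 16 and the kinase in 14 of 22 alternatives. The other 3 acyltransferases had log2 changes between -0.13 and 0.31, and the other 4 kinases had changes between -0.63 and 0.30, none of them called. A second acyltransferase 2D homolog (Sp11g00277) averaged 31.3 FPKM in no-phosphate fronds and 25.4 FPKM in control fronds, which was not called (log2 change 0.29 ± 0.19, adjusted p = 0.423).

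The phosphatidate enzymes and the phosphoethanolamine N-methyltransferases did not pass the test in fronds. PAH1, a phosphatidate phosphatase that yields diacylglycerol (Sp06g00127), had 16.2, 21.6, 18.1 and 18.3 FPKM in no-phosphate fronds, against 21.7, 21.4, 19.2 and 20.4 FPKM in control fronds, which overlapped (adjusted p = 0.458). The 3 CDP-diacylglycerol synthase models, whose enzymes turn phosphatidate into the activated lipid used for phosphatidylglycerol and phosphatidylinositol, had log2 changes between -0.27 and 0.01. Phosphoethanolamine N-methyltransferases make phosphocholine, a precursor of phosphatidylcholine. The neighbouring models Sp13g00199 and Sp13g00200 changed by log2 values of 0.27 ± 0.23 and 0.23 ± 0.27, with overlapping libraries.

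Of the 13 tested phospholipases A, 1 rose in fronds. LCAT3, a phospholipase A1 of the lecithin-cholesterol acyltransferase family (Sp16g00228; chromosome 16, 1228674 to 1232680), had 15, 18.5, 15.3 and 16.2 FPKM in no-phosphate fronds, against 9.76, 9.0, 12.2 and 12.4 FPKM in control fronds. The groups did not overlap, with means of 16.2 ± 1.58 FPKM in no-phosphate fronds and 10.8 ± 1.70 FPKM in control fronds (log2 change 0.55 ± 0.14, adjusted p = 0.0379). The call was kept in 13 of 22 alternatives. It was lost when libraries were scaled to the same FPKM sum and in limma voom on recovered reads, with adjusted p-values over the alternatives between 0.0228 and 0.113. The other 12 had log2 changes between -0.67 and 0.51. The phospholipase A-2-activating protein (Sp03g00177), which in human cells is a ubiquitin-binding protein and not itself a phospholipase, was nearly level, at 20.0 FPKM in no-phosphate fronds and 18.9 FPKM in control fronds.

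None of the 10 phospholipases C and 10 phospholipases D was called in fronds by the fit to all libraries. Their log2 changes lay between -0.55 and 0.19 for C and between -0.35 and 0.32 for D. The phospholipases D that were called with frond libraries fitted alone, given above, were both lower without phosphate. In Arabidopsis, non-specific phospholipase C4 is induced by phosphate starvation and hydrolyses membrane phospholipids. The duckweed model of that name (Sp11g00243) had 3.20, 3.46, 5.03 and 5.42 FPKM in no-phosphate fronds, against 4.01, 7.72, 4.90 and 4.91 FPKM in control fronds. The libraries overlapped, and its log2 change was -0.27 ± 0.26 (adjusted p = 0.594). Phospholipase D zeta 1 (Sp01g01016) belongs to a subfamily that in Arabidopsis takes part in root responses to phosphate. Its levels were 11.5, 13.9, 12.5 and 12.7 FPKM in no-phosphate fronds, against 16.6, 15.4, 13.7 and 14 FPKM in control fronds (log2 change -0.22 ± 0.13, adjusted p = 0.348). The most abundant phospholipase D, an alpha 1 model (Sp08g01306), averaged 214 ± 33.4 FPKM in no-phosphate fronds and 252 ± 14.6 FPKM in control fronds, with a log2 change of -0.25 ± 0.12 (adjusted p = 0.259).

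**Figure D2:**
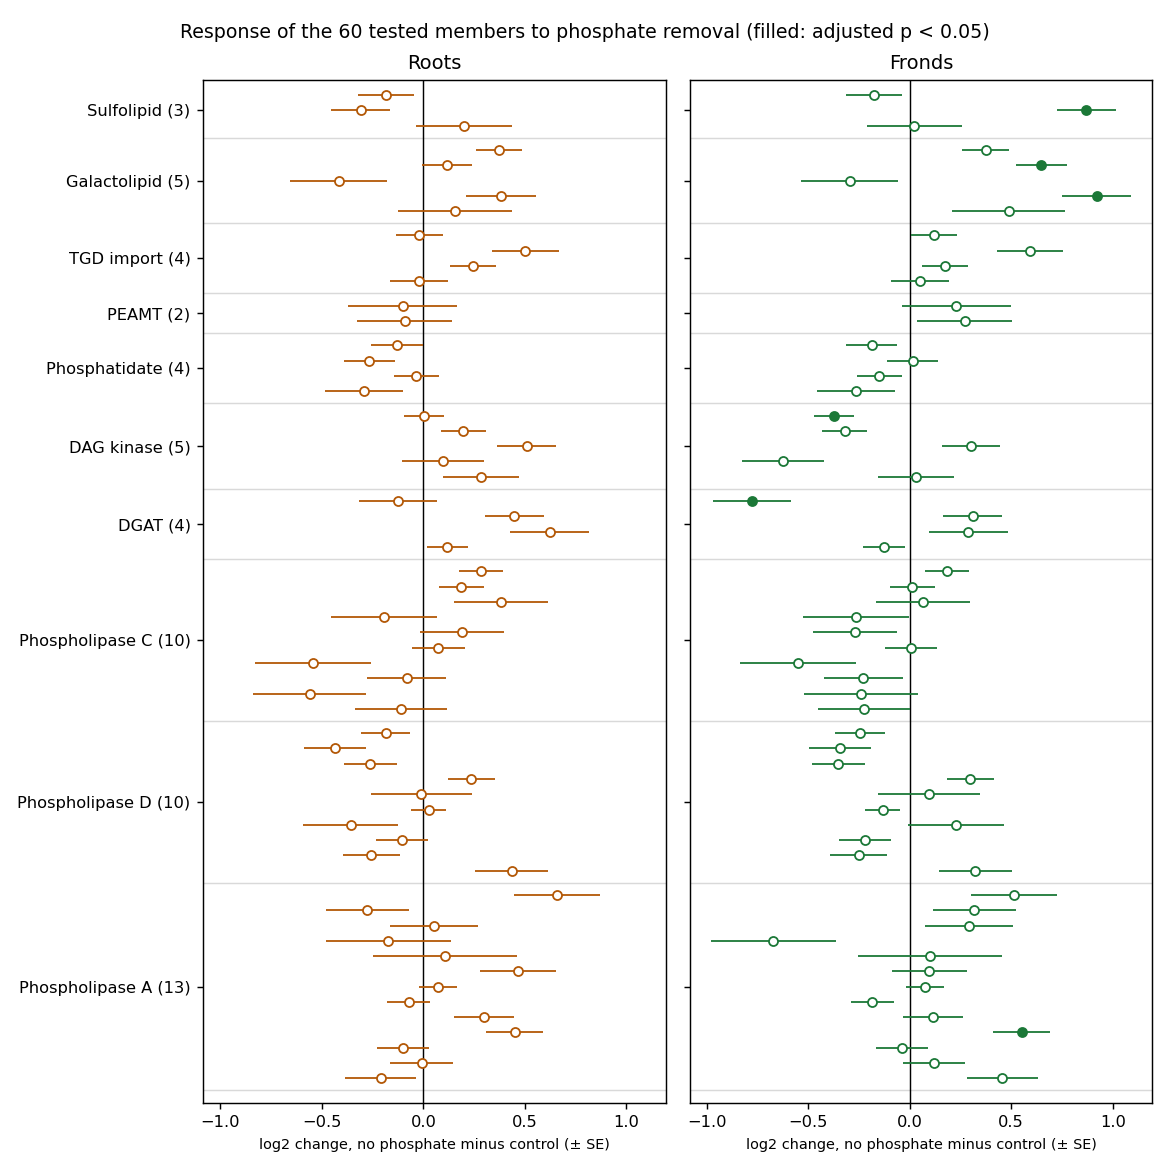
Log2 change (no phosphate minus control, x axis) with its standard error for each of the 60 tested lipid genes, ordered by role, in roots (left) and fronds (right). PEAMT stands for phosphoethanolamine N-methyltransferase, DAG for diacylglycerol and DGAT for diacylglycerol O-acyltransferase. Filled points passed the test, which 6 genes did in fronds and 0 in roots.

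In roots, none of the 60 tested members was called by limma, beside 0.355% of all genes called higher and 0.0663% called lower. Limma voom on recovered reads also called 0. Without adjustment, 15 members had a p under 0.05, which is 25.0% of the members beside 16.3% of all genes. The largest positive change was that of a phospholipase A1-Igamma2 (Sp01g00708), a plastid enzyme that removes a fatty acid from phospholipids. It had 117, 156, 190 and 179 FPKM in no-phosphate roots, against 136, 84.3, 87.1 and 97.9 FPKM in control roots. No-phosphate library 5 lay below control library 1, so the groups overlapped, and the log2 change was 0.66 ± 0.21 (adjusted p = 0.143). Leaving out no-phosphate root library 5 brought this gene (adjusted p = 0.0468) and TGD2 (adjusted p = 0.0260) past the threshold. The acyltransferase 2D model Sp11g00277 passed it (adjusted p = 0.0144) without control root library 1. Calls over all genes moved too, with 4.76% of all tested genes called in roots without the first of these libraries and 2.08% without the second, beside 0.422% with all libraries.

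The 4 models that rose in fronds gave the following values in roots, none of them called. UDP-sulfoquinovose synthase had 15.8, 21.1, 17.3 and 11.3 FPKM in no-phosphate roots, against 19.1, 17.5, 21.7 and 22.2 FPKM in control roots. These overlapped, and the log2 change was -0.31 ± 0.14 (adjusted p = 0.305). The longer DGDG synthase model averaged 43.3 ± 3.48 FPKM in no-phosphate roots and 40.1 ± 5.64 FPKM in control roots (log2 change 0.12 ± 0.12, adjusted p = 0.677). The shorter one had 22.5, 23.3, 23.7 and 21.4 FPKM in no-phosphate roots, against 22.9, 16.6, 17.0 and 13.4 FPKM in control roots. Control library 1 lay within the no-phosphate range, and the log2 change was 0.38 ± 0.17 (adjusted p = 0.284). LCAT3 averaged 12 ± 1.19 FPKM in no-phosphate roots and 8.58 ± 1.85 FPKM in control roots, a log2 change of 0.45 ± 0.14 (adjusted p = 0.131). MGDG synthase (Sp12g00726), which was called in neither tissue, had 73.8, 83.0, 96.9 and 81.5 FPKM in no-phosphate roots, against 65.5, 73.5, 59.6 and 59.0 FPKM in control roots. Its groups were separate by a narrow gap, and the log2 change of 0.37 ± 0.11 (adjusted p = 0.123) was as large as that in fronds.

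Whether the response differed between the tissues was tested by the interaction term, the root response minus the frond response. It called 0 of the 60 members by limma and 0 by limma voom, beside 0% of all genes higher and 0% lower, and 8 members had an unadjusted p under 0.05. UDP-sulfoquinovose synthase had the smallest adjusted p of the members, with a difference of -1.18 ± 0.20 in log2 change (adjusted p = 0.0998). Without no-phosphate root library 6, in which its level was the highest of that group, the difference was -1.30 (adjusted p = 0.00825), in a fit that called the interaction for 116 genes among all tested. The difference for the longer DGDG synthase model was -0.53 ± 0.18 (adjusted p = 0.347).

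Between the tissues themselves most members differed, as most genes did. In control medium 22 of the 60 were higher in roots than in fronds, or 36.7% beside 28.8% of all genes, and 23 were lower, or 38.3% beside 31% of all genes. Without phosphate 23 were higher, or 38.3% beside 32.6%, and 22 were lower, or 36.7% beside 35%. 43 members were called in both media, all with the same sign. The pairs of numbers depend on how roots and fronds are scaled to each other. With every library scaled to the same FPKM sum, 27 members were higher and 17 lower in roots in control medium, and 30 and 19 without phosphate, the median of all genes having moved to 0.22 and 0.23 on the log2 scale. By limma voom on recovered reads the counts were 26 and 17 in control medium and 30 and 20 without phosphate.

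**Figure D3:**
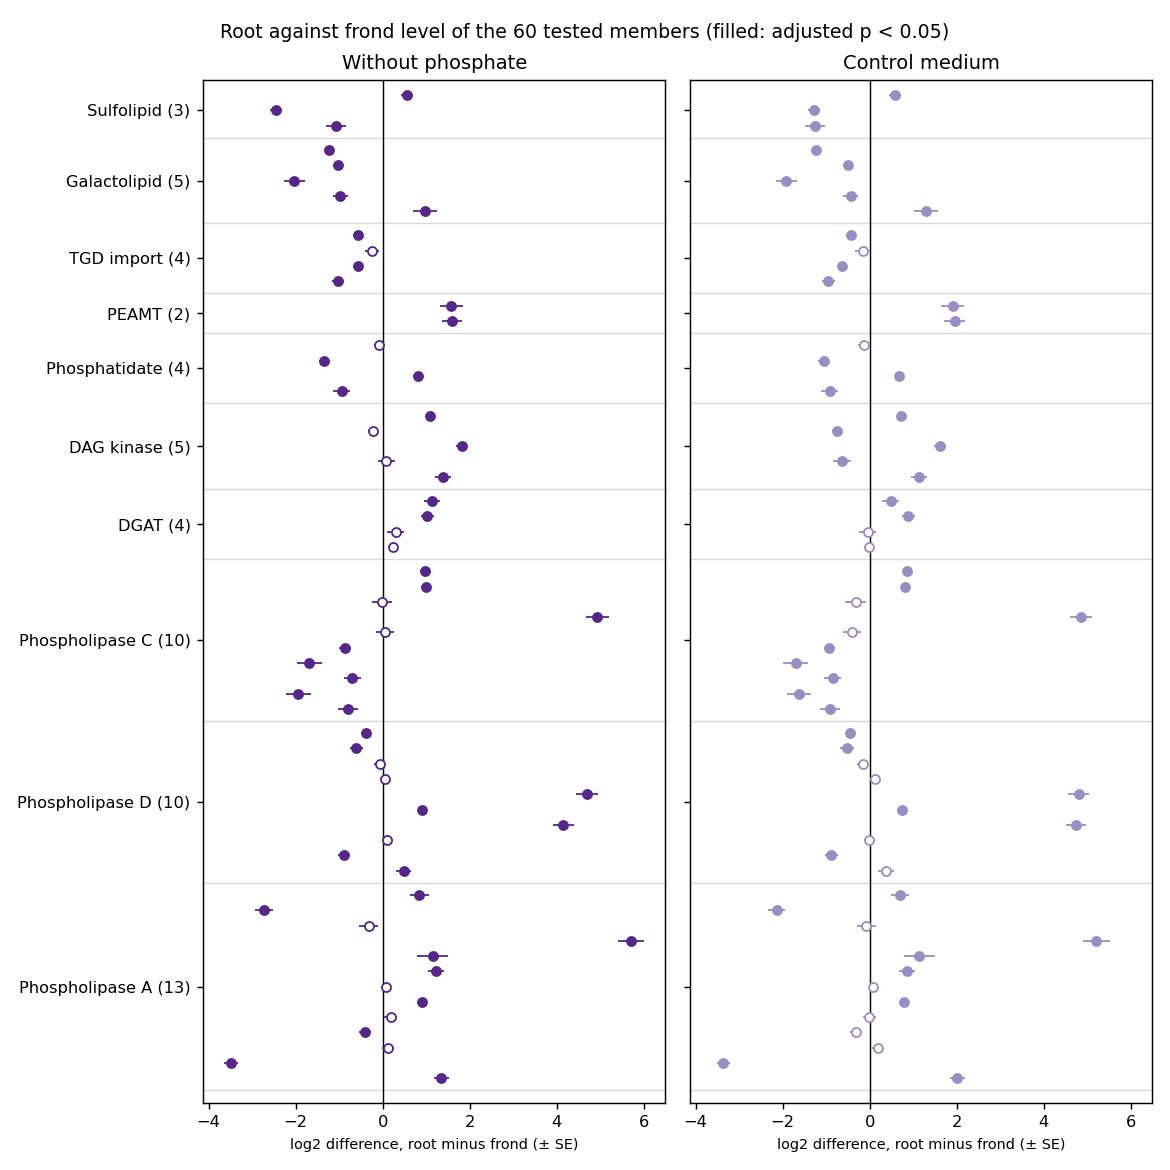
Log2 difference (root minus frond, x axis) with its standard error for each of the 60 tested lipid genes, ordered by role, without phosphate (left) and in control medium (right). Filled points passed the test. Most sulfolipid, galactolipid and TGD models lie left of 0, higher in fronds, both phosphoethanolamine N-methyltransferases (PEAMT) lie to the right, and the phospholipases spread to both sides.

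The sulfolipid, galactolipid and TGD models were mostly lower in roots. In both media 4 of the 5 galactolipid models, 3 of the 4 TGD models and 2 of the 3 sulfolipid models were lower in roots than in fronds. Of all genes, 31% were called lower in control medium and 35% without phosphate. The groups are small, and 2 of the 4 galactolipid models are the neighbouring DGDG synthase models. Of the 2 lower sulfolipid models, 1 is the sulfoquinovosidase model (Sp13g00739), whose homolog is a bacterial enzyme that splits sulfoquinovose off. UDP-sulfoquinovose synthase averaged 16.4 ± 4.06 FPKM in no-phosphate roots and 92.4 ± 7.46 FPKM in no-phosphate fronds, a log2 difference of -2.46 ± 0.14 (adjusted p = 5.58e-10). In control medium it averaged 20.1 ± 2.22 FPKM in roots and 50.1 ± 3.87 FPKM in fronds, a log2 difference of -1.28 ± 0.14 (adjusted p = 1.3e-06). MGDG synthase (Sp12g00726) had the same log2 difference of -1.23 in both media. The palmitoyl-MGDG desaturase averaged 15.2 FPKM in no-phosphate roots and 64.3 FPKM in no-phosphate fronds, with 21.5 FPKM in control roots and 80.1 FPKM in control fronds (log2 differences of -2.03 without phosphate and -1.91 in control medium). The chloroplast form of CDP-diacylglycerol synthase, which serves phosphatidylglycerol synthesis in the plastid (Sp14g00489), averaged 16.4 FPKM in no-phosphate roots and 42.5 FPKM in no-phosphate fronds, with log2 differences of -1.34 without phosphate and -1.05 in control medium. The longer DGDG synthase model differed by -1.03 without phosphate and by -0.49 in control medium, and the call in control medium, like those of the shorter model and of TGD1 (Sp20g00293), was lost under scaling to the same FPKM sum and under limma voom. The shorter model also lost it without control frond library 1 or 2 or control root library 2, 3 or 4.

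The exceptions among these were higher in roots. SQD2 had 139, 94.6, 111 and 95.1 FPKM in no-phosphate roots, against 66.3, 75.7, 75.6 and 74.0 FPKM in no-phosphate fronds. In control medium it had 100, 126, 151 and 121 FPKM in roots, against 86.9, 84.1, 70.6 and 89.1 FPKM in fronds. Every root library exceeded every frond library of its medium, with log2 differences of 0.57 ± 0.14 without phosphate (adjusted p = 0.00168) and 0.58 ± 0.14 in control medium (adjusted p = 0.00185). The 2 named steps of sulfolipid synthesis thus ranked the tissues in opposite order, also under scaling to the same FPKM sum and under limma voom. The MGDG synthase 3 model averaged 19.6 FPKM in no-phosphate roots and 9.53 FPKM in no-phosphate fronds, and 18.0 FPKM in control roots and 6.42 FPKM in control fronds (log2 differences of 0.97 and 1.30).

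Both phosphoethanolamine N-methyltransferase models were higher in roots. Sp13g00199 had 476, 304, 281 and 383 FPKM in no-phosphate roots, against 134, 137, 104 and 96.4 FPKM in no-phosphate fronds. In control medium it had 542, 506, 265 and 276 FPKM in roots, against 86.3, 92.1, 120 and 90.7 FPKM in fronds. The tissues were far apart, while control root libraries 1 and 2 stood well above libraries 3 and 4. Its log2 differences were 1.59 ± 0.23 without phosphate and 1.95 ± 0.23 in control medium. Sp13g00200, 142 bases downstream on the same strand, gave 1.58 and 1.91, and its log2 levels followed those of its neighbour with a Pearson r of 0.99 over the 16 libraries.

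Of the 5 diacylglycerol kinases, 3 were higher in roots and 0 lower without phosphate, and 3 were higher and 2 lower in control medium. Of the 4 acyltransferases, 2 were higher and 0 lower in each medium. The shares of all genes called each way, given above, are the background for these small groups. Diacylglycerol kinase 1 model Sp03g00521 averaged 24.8 ± 1.18 FPKM in no-phosphate roots and 6.39 ± 1.58 FPKM in no-phosphate fronds, with 17.2 ± 2.24 FPKM in control roots and 4.93 ± 0.711 FPKM in control fronds. Its log2 differences were 1.82 ± 0.14 without phosphate and 1.62 ± 0.14 in control medium. The kinase 1 model that fell in fronds, Sp17g00545, averaged 136 FPKM in both root groups and was also higher in roots in each medium, by 1.10 without phosphate and 0.73 in control medium. The neighbouring kinases 7 and 4 (Sp12g00773 and Sp12g00774) were lower in roots in control medium, with log2 differences of -0.64 and -0.75, and were not called without phosphate. The call of kinase 7 was lost under scaling to the same FPKM sum and under limma voom. Kinase 2 (Sp04g00514) averaged 13.7 FPKM in no-phosphate roots and 4.56 FPKM in no-phosphate fronds, a log2 difference of 1.39, and differed by 1.13 in control medium. The interaction test given above did not call either of the kinases 7 and 4. Acyltransferase 2D model Sp05g00865, which fell in fronds, was higher in roots by 1.14 without phosphate and 0.48 in control medium, and lost the call in control medium without control root library 1 or 3 or control frond library 1 or 2.

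The largest tissue differences lay among the phospholipases, and they ran both ways. Phospholipase A1-II 1 (Sp08g00623; chromosome 8, 4826104 to 4827329), of a lipase family that removes a fatty acid from phospholipids, had 133, 68.8, 78.0 and 88.3 FPKM in no-phosphate roots, against 0.297, 0.229, 0.914 and 1.87 FPKM in no-phosphate fronds. In control medium it had 63.8, 114, 127 and 111 FPKM in roots, against 0.761, 2.34, 2.94 and 1.44 FPKM in fronds. Frond levels were within a few FPKM of 0, and rested on 30 reads without phosphate and 61 reads in control medium. The log2 differences were 5.71 ± 0.31 without phosphate and 5.21 ± 0.31 in control medium, which the pseudocount of 1 makes smaller than the ratios of the levels.

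Non-specific phospholipase C4 (Sp11g00243; chromosome 11, 1276732 to 1283357) had 255, 159, 129 and 118 FPKM in no-phosphate roots, against 3.20, 3.46, 5.03 and 5.42 FPKM in no-phosphate fronds. In control medium it had 111, 212, 207 and 219 FPKM in roots, against 4.01, 7.72, 4.90 and 4.91 FPKM in fronds. Roots were higher throughout, by log2 differences of 4.93 ± 0.26 without phosphate and 4.86 ± 0.26 in control medium. The model also lists an armadillo repeat, a protein-binding domain, so it may join 2 genes. Phospholipase D alpha 4, an enzyme that releases phosphatidate, has 2 neighbouring models on the minus strand of chromosome 16, 111 bases apart. Sp16g00381 had 54.6, 39.4, 40.8 and 42.1 FPKM in no-phosphate roots, against 0.347, 0.534, 0.933 and 1.21 FPKM in no-phosphate fronds, and Sp16g00382 averaged 28.3 FPKM in no-phosphate roots and 0.637 FPKM in no-phosphate fronds. Their log2 differences were 4.70 and 4.16 without phosphate and 4.81 and 4.74 in control medium.

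Other phospholipases with a root excess were more moderate. The 2 non-specific phospholipase C1 models (Sp01g01825 and Sp01g01826, 26 bases apart) were higher in roots by 1.00 and 0.96 without phosphate and by 0.83 and 0.87 in control medium. Phospholipase D beta 1 (Sp13g00019) had 26.9, 23.8, 26.4 and 23.7 FPKM in no-phosphate roots, against 12.9, 12.5, 14.3 and 12.3 FPKM in no-phosphate fronds, with a narrow spread in both tissues. PLIP2 (Sp06g00956), a plastid lipase whose Arabidopsis namesake releases fatty acids, averaged 6.07 FPKM in no-phosphate roots and 1.79 FPKM in no-phosphate fronds, and 7.09 FPKM in control roots and 1.01 FPKM in control fronds (log2 differences of 1.35 and 2.01). SGR2 (Sp12g00066), which in Arabidopsis is needed for shoot gravitropism, was higher in roots by 0.90 without phosphate and 0.79 in control medium.

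Among the phospholipases higher in fronds, the lysophospholipase BODYGUARD 3 (Sp02g00703; chromosome 2, 3683275 to 3685356) was close to absent from root libraries. Its family in Arabidopsis is known for building the cuticle of the shoot epidermis. It had 0.073, 0, 0 and 0 FPKM in no-phosphate roots, against 11.4, 10.1, 9.26 and 11.0 FPKM in no-phosphate fronds. Control roots had 0, 0, 0.0985 and 0 FPKM, against 11.9, 10.8, 6.80 and 9.22 FPKM in control fronds. These values rest on 1 read in no-phosphate roots and 456 reads in no-phosphate fronds, a ratio of 0.00185 with an exact 95% interval of 4.67e-05 to 0.0103. In control medium the reads were 1 in roots and 422 in fronds, a ratio of 0.00252 with an interval of 6.37e-05 to 0.0141. These intervals cover counting error only.

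Phospholipase A2-alpha (Sp18g00347; chromosome 18, 2014489 to 2016225), a small secreted enzyme that frees a fatty acid and lysophospholipid, had 28.2, 32.7, 21.6 and 18.0 FPKM in no-phosphate roots, against 157, 147, 211 and 164 FPKM in no-phosphate fronds. In control medium it had 19.3, 41.3, 32.6 and 30.4 FPKM in roots, against 145, 141, 126 and 127 FPKM in fronds. The log2 differences were -2.73 ± 0.20 without phosphate and -2.14 ± 0.20 in control medium. The 3 non-specific phospholipase C6 models (Sp07g00665, Sp07g00666 and Sp07g00667) lie side by side on alternating strands, 74 and 6 bases apart, and were all lower in roots in both media, with log2 differences between -1.93 and -0.80 without phosphate and between -1.70 and -0.91 in control medium and at no more than 3.26 FPKM in any root library. The use of strand in counting was not stated, and reads of these models cannot be assigned to a strand. The phospholipase D alpha 1 models (Sp08g01305 and Sp08g01306) had log2 differences of -0.61 and -0.38 without phosphate and of -0.52 and -0.44 in control medium. In control medium both calls were lost under scaling to the same FPKM sum and under limma voom, and without phosphate that of Sp08g01306 was lost under both and that of Sp08g01305 under the scaling.

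**Figure D4:**
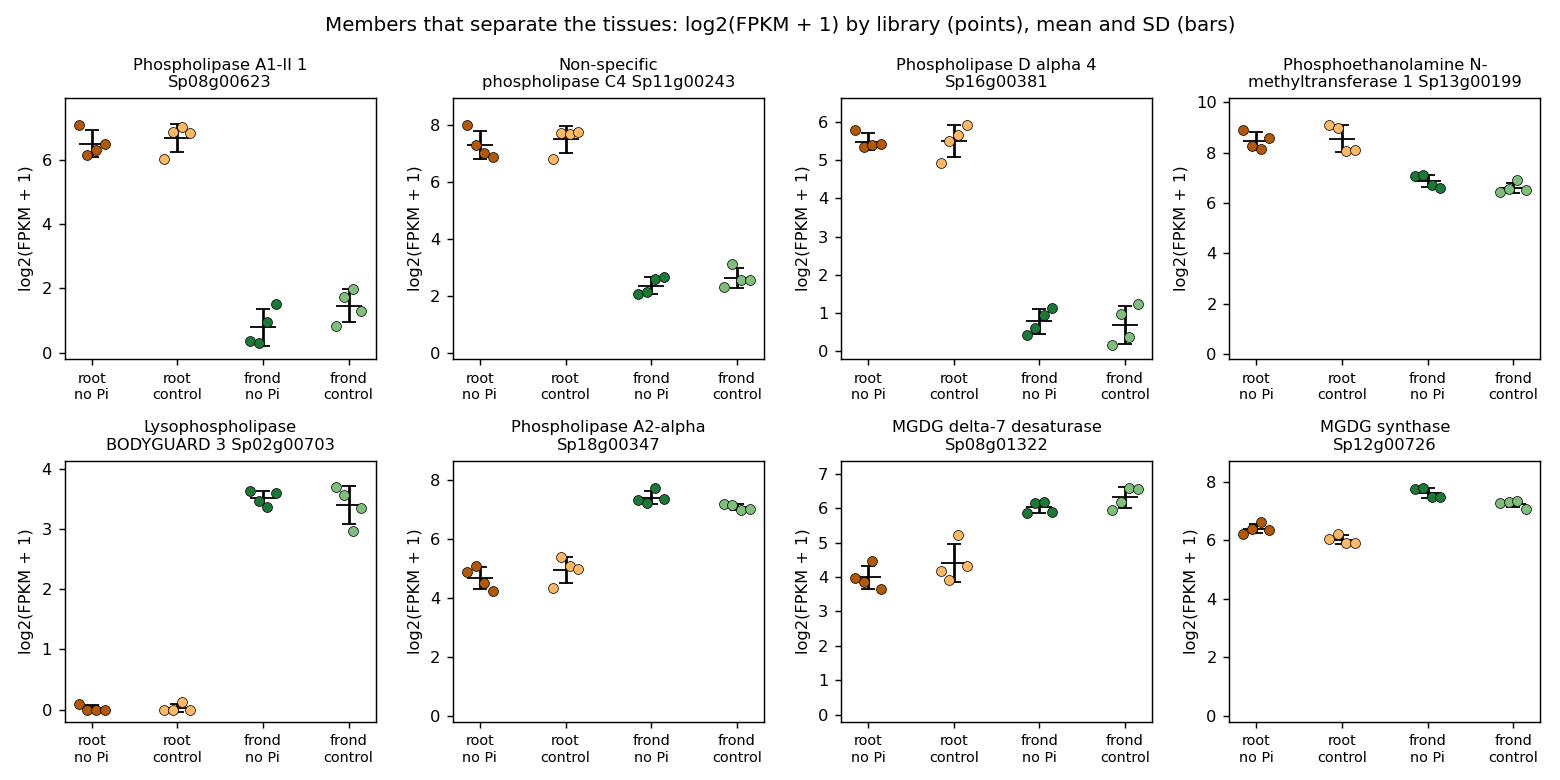
Log2(FPKM + 1) of 8 lipid genes that separate the tissues, in each of the 16 libraries (points; x axis, tissue and medium, with "no Pi" for no phosphate), with the mean and SD of each group as bars. The upper 4 genes are higher in all 8 root libraries than in any frond library, and the lower 4 are higher in all 8 frond libraries than in any root library.

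A wider list of 62 other glycerolipid genes, drawn by homolog name, puts these values in context. In fronds 5 of its 61 tested genes rose, or 8.20% beside 2.11% of all genes, and 1 fell, or 1.64% beside 2.3%. In roots 0 were called. UTP-glucose-1-phosphate uridylyltransferase (Sp14g00313), which makes UDP-glucose, the sugar nucleotide from which galactolipid and sulfolipid head groups derive, averaged 173 ± 19.6 FPKM in no-phosphate fronds and 109.9 ± 15 FPKM in control fronds (log2 change 0.65 ± 0.13, adjusted p = 0.0161). The other models of that name were not called. Sp20g00170 averaged 110 FPKM in no-phosphate fronds and 97.4 FPKM in control fronds. The model named for the chloroplast form 3, Sp01g01420, was lower without phosphate, at 31.6 FPKM against 41.4 FPKM in control fronds. A pair of neighbouring phosphatidylcholine:diacylglycerol cholinephosphotransferase models, for an enzyme that moves the phosphocholine head group between diacylglycerols, rose by 0.60 (Sp06g00908) and 0.78 (Sp06g00909). The glycerophosphodiester phosphodiesterase GDPD6 (Sp03g00551), of a family that splits deacylated phospholipids, averaged 38.8 ± 8.58 FPKM in no-phosphate fronds and 21.5 ± 3.30 FPKM in control fronds (log2 change 0.81 ± 0.16, adjusted p = 0.0119). A 1-acyl-sn-glycerol-3-phosphate acyltransferase (Sp17g00308) rose by 0.91. An LPEAT2 model (Sp02g01194), for an enzyme that adds a fatty acid back to lysophospholipids, fell to 26.6 ± 0.856 FPKM in no-phosphate fronds, against 45.7 ± 5.26 FPKM in control fronds. The other model of that name, Sp02g01193, was not called, with 28.2 FPKM in no-phosphate fronds and 34.6 FPKM in control fronds. The frond count of this list, too, depended on single libraries. It was 1 without no-phosphate frond library 5, 2 without control frond library 4 and 13 with frond libraries fitted alone. Over all genes, the same settings called 154, 166 and 1811. For roots it was 3 without no-phosphate root library 5, where 791 genes were called among all tested.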

How the data were processed

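Per the labels' protocols, poly(A)-selected RNA was read in pairs of 150 bases. The submitters' processing notes name HISAT2 2.0.5 and featureCounts 1.5.0-p3. Genome build, annotation and the use of strand in counting were not given in the sources used here. Coordinates are those of the deposited table. Per the file headers, its values are FPKM computed by the authors. Columns show tissue and medium with a number per tissue, which was not matched to the labelled replicates. 1 line of the table was not used.

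FPKM times gene length came out as a whole number of reads for 100% of values in each library, within 0.001 reads, and these are the recovered reads. The implied library size was 0.886 to 1.14 times their sum, so the authors' FPKM carry a scaling between libraries that is not described. No libraries of a group agreed within sampling noise (chi-square per degree of freedom at least 3.68).

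A mean per group was fitted over 16 libraries to log2(FPKM + 1) with limma 3.58.1 (R 4.3.3, statmod 1.5.0; trended, robust prior; 12 residual degrees of freedom) for genes averaging at least 0.5 FPKM. P-values are two-sided, adjusted by Benjamini-Hochberg over all tested genes of a comparison, and called under 0.05. Changes on this scale understate those of low genes. The fit was tested on simulated data.

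Members and lists were chosen with earlier results of these data known. Named with values were members called in fronds, roots or the interaction, all sulfolipid, galactolipid and phosphoethanolamine N-methyltransferase members, the highest of each role, and up to 8 called members each way per tissue comparison with at least 5 FPKM in the higher group. TGD2, PAH1, phospholipase D zeta 1, phospholipase D beta 1, phospholipase D delta model Sp02g00858, SGR2 and acyltransferase 2D model Sp11g00277 were added after their values were seen. So were the A-2-activating protein, the neighbours of named models and the genes of the wider list. Alternatives were a pseudocount of 0.1, no filter, the same FPKM sum, tissues fitted alone, each library left out, a replicate block, median-ratio scaling and limma voom on recovered reads. Intervals of read ratios are exact and conditional on the library totals.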

Additional observations from a re-analysis of the deposited data

Results flagged for a closer look

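In 5 of the 120 groups of 4 libraries examined, made of 30 named members in 4 groups each, the highest or lowest library stood apart from the other 3, as chance alone does in about 1 of 20 groups. The measure is the gap to the nearest library over the range of the group. BODYGUARD 3 (Sp02g00703) reached 1 in no-phosphate roots, with 0.073 FPKM in library 5 and 0 in the others. It also reached 1 in control roots, with 0.0985 FPKM in library 3 and 0 in the others, and each of these values is 1 read. Those root libraries also had the highest summed frond markers of their groups, 16188 FPKM in no-phosphate root library 5 and 18707 FPKM in control root library 3, whose part in these reads was not tested. Phosphoethanolamine N-methyltransferase 3 (Sp13g00200) reached 0.832 in no-phosphate roots, with 639 FPKM in library 5 and 435 FPKM in the next library. Non-specific phospholipase C4 (Sp11g00243) reached 0.889 in control roots, with 111 FPKM in library 1 and 207 to 219 FPKM in the others. Phospholipase D alpha 4 (Sp16g00382) reached 0.838 in no-phosphate fronds, with 0.335 FPKM in library 6 and 0.707 to 0.78 FPKM in the others.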

How the results depend on the processing

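No log2 change of a member named by the stated rule turned its sign where it was called. The balance of members higher and lower in roots did turn in control medium, with 22 and 23 as deposited, 27 and 17 under the same FPKM sum and 26 and 17 by limma voom. The count of members called in fronds, 6, ranged from 3 to 7 when single libraries were left out, while 154 to 972 genes were called among all tested, and was 10 with frond libraries fitted alone. The count in roots ranged from 0 to 2 and that of the interaction from 0 to 1 without single libraries, while calls over all genes ranged from 0 to 791 in roots and from 0 to 116 in the interaction. Other settings left the tissue counts, 45 in each medium, within 1.5 times. Whether the column numbers pair the roots and fronds of a flask was not settled. The 8 correlations between same-numbered root and frond libraries lay between -0.116 and 0.147, which cannot decide it, as flasks may differ little. With the column numbers as a replicate block, 46 members were called between tissues in control medium, 44 without phosphate and 0 in the interaction. Both planned edgeR alternatives, TMM factors and a quasi-likelihood test on recovered reads, were not run, because the deposited values are FPKM. Median-ratio scaling and limma voom, chosen after seeing the data, stood in for them. Depth limits the members near 0 in one tissue, whose log2 differences depend on the pseudocount.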

Other observations

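The wider glycerolipid list also held large tissue differences, among its glycerol-3-phosphate acyltransferases, which in Arabidopsis include enzymes of cutin and suberin synthesis. Over the list, the log2 differences, root minus frond, ran from -4.52 to 4.07 in control medium, beside -3.36 to 5.21 for the members. Without phosphate they ran from -4.86 to 3.75, beside -3.49 to 5.71 for the members. Models named for acyltransferase 5, a suberin enzyme of Arabidopsis roots, averaged 34.5 FPKM (Sp06g00064) and 31.0 FPKM (Sp06g00065) in no-phosphate roots, against 1.68 and 1.72 FPKM in no-phosphate fronds. In control medium the same models averaged 40.3 and 37.2 FPKM in roots, against 1.49 and 1.5 FPKM in fronds. Another model of that name, Sp06g01264, averaged 17.6 FPKM in control roots and 1.34 FPKM in control fronds. A further one, Sp01g01694, was higher in fronds, with 3.41 FPKM in control roots and 28.1 FPKM in control fronds. A RAM2 model (Sp13g00707) was also higher in fronds, with 0.535 FPKM in no-phosphate roots and 20.6 FPKM in no-phosphate fronds. It had 0.537 FPKM in control roots and 28.6 FPKM in control fronds (log2 difference -4.28 ± 0.17 in control medium, limma adjusted p = 5.16e-12). The other RAM2 models differed in direction. Sp17g00019 averaged 8.47 FPKM in control roots and 19.8 FPKM in control fronds. Control roots averaged 2.39 FPKM for Sp01g00283 and 10.6 FPKM for Sp09g00166, against 0.0958 and 5.52 FPKM in control fronds. Acyltransferase 1 model Sp06g00701 averaged 0.990 FPKM in no-phosphate roots and 52.5 FPKM in no-phosphate fronds, and 1.11 FPKM in control roots and 46.3 FPKM in control fronds. Of the other models of that name, Sp06g00700 was also higher in fronds, with 0.0684 FPKM in control roots and 20.1 FPKM in control fronds. Sp09g00164 did not share this, with 16.2 FPKM in control roots and 13.0 FPKM in control fronds.

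Library 5 of the no-phosphate roots held the highest value of its group, and library 1 of the control roots the lowest, for phospholipase A1-II 1, non-specific phospholipase C4 and both phospholipase D alpha 4 models. These 4 models are the members with the largest root excess.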
